A study of Mus musculus with 6 samples.

Results

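Fibroblast growth factor (FGF) signalling was described here through 10 genes of the 24568 symbols in the deposited matrix, taken by name: the ligands Fgf7, Fgf9, Fgf10 and Fgf18, the receptors Fgfr1, Fgfr2 and Fgfr3, and Spry1, Spry2 and Dusp6, which are known to be induced by FGF signalling and to dampen it. All 10 symbols were found. FGF ligands are secreted proteins that bind receptor tyrosine kinases together with heparan sulfate and activate the MAP kinase cascade. Fgf7 and Fgf10 are known for signalling from mesenchyme to epithelium through the epithelial splice form of Fgfr2, and Fgf9 for signalling to mesenchymal receptors such as the mesenchymal forms of Fgfr1 and Fgfr2. In the developing gut, Fgf9 is known from mouse genetics as a regulator of intestinal length and mesenchymal growth, and Fgf10 as a regulator of endoderm growth in several regions.

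The cells came from small intestine of C57/BL6 mouse embryos carrying Pdgfra-H2BGFP, a reporter in which the Pdgfra promoter drives a nuclear green fluorescent protein. One experiment held the ages E15.5 and E16.5 and the other E13.5, E14.5 and E18.5. In each there were 2 samples of all live cells (negative for DAPI and Ter119) and 1 sample enriched by sorting for CD31, CD45, Epcam or a high GFP signal. Embryos were pooled, 2 for each age except E13.5 (4) and E14.5 (3), and intestines were cut into pieces of 2.5 mm whose lipid barcodes are not used here. No wild type, mutant or untreated group was part of the design, and every sample carried the reporter. The RNA was read at the transcript 3' end, so the splice forms of the receptors could not be told apart.

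The single matrix held 13127 cell barcodes with 6 suffixes that no label names. The suffixes are called sets here: A1, A2 and A3 share one ending of the barcode and B1, B2 and B3 the other. A set is a technical split and not one of the study's groups, so ages, sorts and embryos could not be assigned to cells. There are therefore no replicates: nothing was tested, and each interval covers counting error only. After filtering, 12623 cells remained, with a median of 12127 unique molecular identifiers (UMIs) per cell in A1, 13586 in A2 and 7058 in A3, with 4175 in B1, 4115.5 in B2 and 3548 in B3. Pairs of sets shared 0 to 3 barcodes. The summed level of 6 mesenchyme markers was between 3395 and 6864 CPM (counts of a gene scaled to a fixed total of UMIs) in every set. Epithelial markers summed to 55.2 to 571 CPM, endothelial markers to 22.8 to 76.3 and blood markers to 5.33 to 58.9, and no cluster of cells met the naming rule for these 3 lineages, although the sort included them. One cluster of the B sets, Bc9 with 205 cells, was led by Lyz2 and Tyrobp and had 4 blood markers at 4-fold, but stayed unnamed. The cells named by the rule are thus almost all mesenchymal.

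A3 and B3 stood apart from the other sets. PDGFRA-high mesenchyme, the class of clusters named from a fixed list of genes that includes Pdgfra, F3, Foxl1 and Sox6, made up 87.8% of A3 (95% interval 85.8 to 89.6) and 90.2% of B3 (88.9 to 91.4). Its share was 2.03% in A1, 1.97% in A2, 18.3% in B1 and 19.4% in B2. The FGF genes and 57 other genes of the pathway were left out of the genes used for clustering. The remaining cells were other mesenchyme, except for 37 glia-like cells and 283 cells in 2 unnamed clusters, which took up 5.20% of B1 and 5.82% of B2 but 1.01% of B3.

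Fgf9 and Fgfr2 carried the main contrast in these data, and Fgf10 is a known ligand of Fgfr2, so the 250 bases before the RefSeq start of each are shown. Entries for 9 of the 10 genes were found in RefSeq for GRCm38.p6, the build that mm10 denotes. The windows are chr14:58072436-58072685 on the plus strand for Fgf9, chr7:130266809-130267058 on the minus strand for Fgfr2 and chr13:118714449-118714698 on the plus strand for Fgf10. The Fgf9 window ends at the base before the first exon of the transcript Fgf9-201 and lies inside the gene's whole span. The Fgfr2 window borders neither the first exon of Fgfr2-201, which starts at 130261857, nor that of Fgfr2-211, at 130266263. The Fgf10 window ends before Fgf10-201, whereas Fgf10-202 and Fgf10-203 start upstream, at 118669791 and 118669824. Which starts these cells use was not tested, so the windows need not be the promoters in use. Capitals mark a match to a searched motif, and the sequences run 5' to 3' on the gene's strand.
Fgf9: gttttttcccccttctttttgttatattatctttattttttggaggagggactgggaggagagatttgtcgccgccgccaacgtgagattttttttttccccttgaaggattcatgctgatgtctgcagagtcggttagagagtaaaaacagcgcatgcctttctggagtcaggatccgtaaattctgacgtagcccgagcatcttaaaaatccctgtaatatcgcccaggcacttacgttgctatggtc
Fgfr2: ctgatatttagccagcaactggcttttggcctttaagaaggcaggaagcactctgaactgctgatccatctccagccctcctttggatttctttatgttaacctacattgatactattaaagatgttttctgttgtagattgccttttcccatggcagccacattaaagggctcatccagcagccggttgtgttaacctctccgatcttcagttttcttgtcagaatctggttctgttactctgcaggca
Fgf10: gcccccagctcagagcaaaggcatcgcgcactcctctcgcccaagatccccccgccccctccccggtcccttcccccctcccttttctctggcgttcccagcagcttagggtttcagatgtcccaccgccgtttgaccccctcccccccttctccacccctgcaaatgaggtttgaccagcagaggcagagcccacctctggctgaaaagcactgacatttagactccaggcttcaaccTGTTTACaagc
The windows were searched on both strands for the forkhead letters TGTTTAC, the ETS letters CCGGAA, the GLI letters ACCACCC and the TATA letters TATAAA, with no overlap between the motifs. One match was found among the windows of these 9 genes, the forkhead letters 11 bases before the Fgf10 start. Over 32851 such windows, 3.17% held the forkhead letters, 12.03% the ETS letters, 3.92% the GLI letters and 12.4% the TATA letters. The windows of Fgf9 and Fgfr2 had similar base composition, with 44.8% and 44.0% G and C, against 61.2% for Fgf10.

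Of the ligands, Fgf9 (gene at chromosome 14, 58070671 to 58112854) had the widest range of levels between sets. Its level was 5.46 CPM in A1 (95% Poisson interval 4.67 to 6.35), 4.03 in A2 and 255 in A3 (245 to 266), with 47.8 in B1, 54.0 in B2 and 275 in B3 (264 to 287). A3 and B3 were high, B1 and B2 intermediate, and A1 and A2 low, and the intervals of A3 and B3 did not overlap those of the other 4 sets. A Fgf9 UMI was found in 63.7% of A3 cells and 53.6% of B3 cells. The share was 2.68% in A1, 1.92% in A2, 12.6% in B1 and 13.6% in B2. With every cell thinned to 2000 UMIs, which left out 41 shallower cells, these shares became 35.8% in A3, 38.5% in B3, 0.976% in A1, 0.624% in A2, 8.37% in B1 and 9.29% in B2.

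Fgf10, the ligand of the epithelial form of Fgfr2, was counted at a low and more even level. It was 10.1 CPM in A1, 9.70 in A2 and 14.4 in A3, with 8.07 in B1, 8.60 in B2 and 16.4 in B3. Levels in A3 and B3 were the highest of their endings, and the thinned share of cells lay between 1.73% and 3.00% in all 6 sets. Fgf7, another ligand of that receptor form, was 13.9 CPM in A3 (11.6 to 16.5) and at most 1.10 CPM in the other sets. In B2 no Fgf7 UMI was counted among 2508 cells, which allows up to 0.269 CPM. Fgf18, a relative of Fgf8 and Fgf17, was at most 0.980 CPM and was also not counted in B2.

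Among the receptors, Fgfr1 (chromosome 8, 25518759 to 25575718) was even. It was 76.2 CPM in A1, 70.6 in A2 and 86.0 in A3, with 53.2 in B1, 56.0 in B2 and 75.7 in B3, and its thinned share was lowest in B1, at 11.0% (242 of 2198 cells), and highest in A3, at 182 of 1174 cells. Fgfr2 (chromosome 7, 130162451 to 130266808) had the opposite order to Fgf9. Its level was 79.4 CPM in A1 (76.3 to 82.6), 82.1 in A2 and 23.1 in A3 (20.1 to 26.4), with 41.8 in B1, 39.8 in B2 and 10.3 in B3 (8.21 to 12.7). Within each ending the interval of the low set did not overlap those of the other sets. Fgfr3 was at most 6.03 CPM, in A3, and 0.986 to 2.04 CPM elsewhere.

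The feedback genes did not move as a group. Spry2 (chromosome 14, 105891947 to 105896819), an inhibitor of receptor tyrosine kinase signalling, was 32.7 CPM in A1, 31.1 in A2 and 109 in A3, with 130 in B1, 172 in B2 and 276 in B3. Its relative Spry1 was 62.0 CPM in A1, 60.8 in A2 and 86.5 in A3, with 40.9 in B1, 44.5 in B2 and 64.8 in B3. Dusp6, a phosphatase that inactivates ERK, was 56.4 CPM in A1, 57.3 in A2 and 38.8 in A3, with 24.0 in B1, 29.3 in B2 and 34.9 in B3. Spry1 and Spry2 were thus highest in A3 and B3 within their endings, whereas Dusp6 was lowest in A3 and highest in B3.

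**Figure D1:**
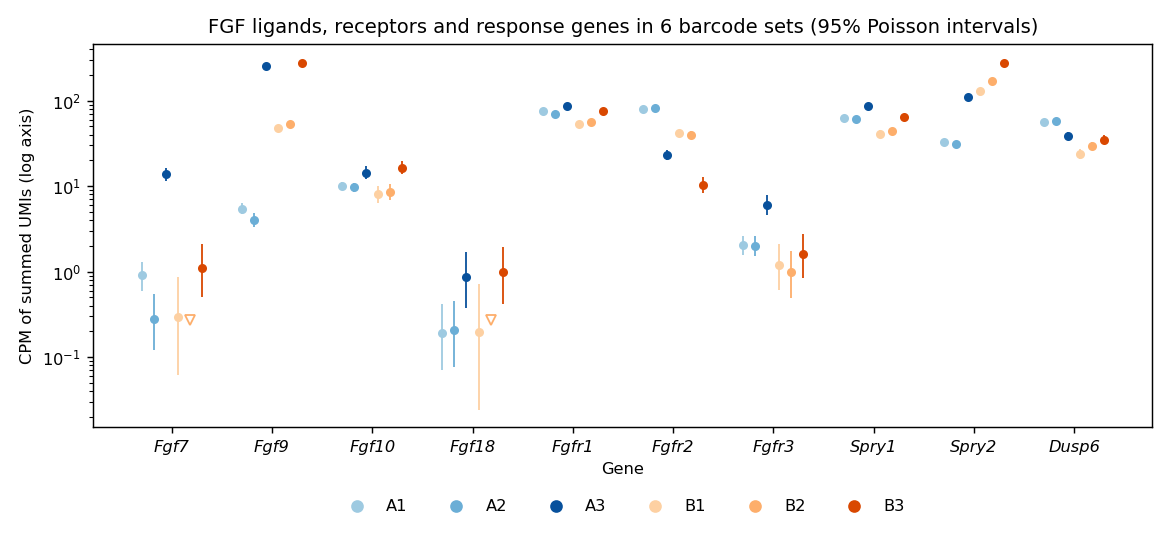
CPM of summed UMIs on a log axis for the 10 genes in the 6 barcode sets, with points for values, bars for 95% Poisson intervals and open triangles for the limit of 3 counts where none was counted. Fgf9 stands at 255 CPM in A3 and 275 CPM in B3 against 4.03 to 54.0 CPM in the other sets, and Fgfr2 has the reverse order within each ending.

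Set 3 was compared with sets 1 and 2 of the same ending, the contrast in which the PDGFRA-high share differed most. A gene entered with at least 20 CPM on one side and was called with a difference of at least 2-fold. Of the 10 members, 6 entered in each ending. In ending A, 3 of these 6 were at least 2-fold apart, against 15.2% of the 7421 genes compared, and in ending B 2 of 6 were, against 13.9% of 6410. The members and pathway lists were chosen with earlier results of these data known. These counts, and later ones set beside a share of all genes, therefore cannot show an excess and are descriptions only. Fgf9 was higher in A3 by 5.74 on the log2 scale (5.56 to 5.92), a 53.5-fold difference, and in B3 by 2.43 (2.33 to 2.54), or 5.40-fold. Genes at least 2-fold higher made up 9.63% of the A comparison and 8.56% of the B comparison. Fgfr2 was lower, with a log2 ratio of -1.81 (-2.01 to -1.61) in ending A and -1.99 (-2.33 to -1.66) in ending B, where 5.59% and 5.37% of genes were at least 2-fold lower. Spry2 was higher by 1.78 (1.66 to 1.89) in ending A and by 0.86 (0.78 to 0.94) in ending B, below the 2-fold line.

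Fgfr1 and Spry1 differed little in both endings. Their log2 ratios were 0.23 and 0.49 in ending A and 0.47 and 0.60 in ending B. Fgf10, under the level needed for the comparison, had ratios of 0.54 and 0.98. Over all genes, the median log2 ratio was -0.05 for ending A and 0.12 for B, and 0.36 and 0.53 over the 6 members, so ratios in ending B carry a shift of that size. Sets 1 and 2 differed by a median absolute log2 ratio of 0.076 in ending A and 0.073 in ending B. Spry2 was further apart than that between B1 and B2, at -0.41, as was Fgf9 between A1 and A2, at 0.44.

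**Figure D2:**
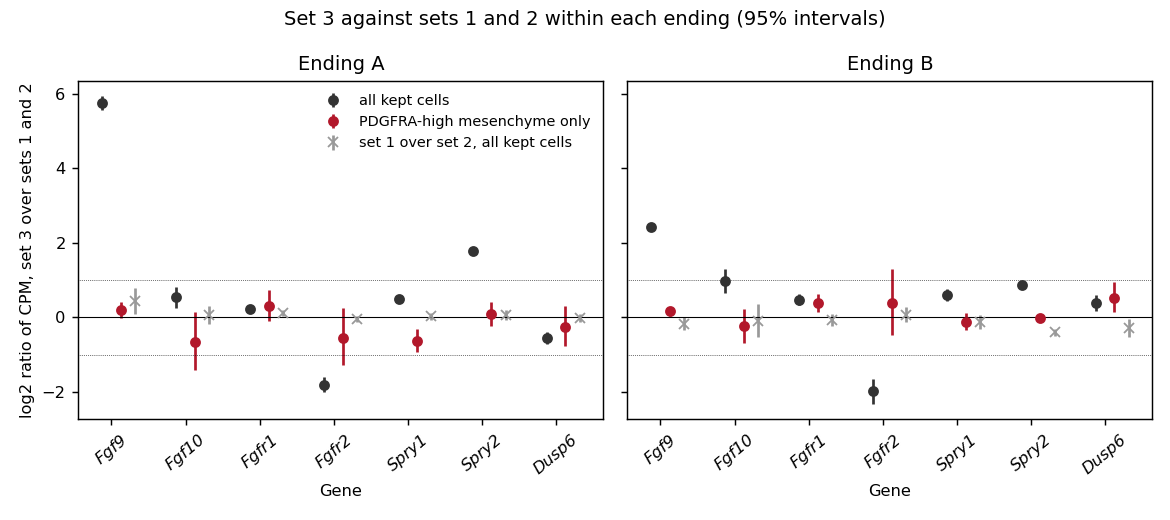
Log2 ratios of CPM for set 3 over sets 1 and 2 in ending A (left) and ending B (right), with all kept cells in black, PDGFRA-high mesenchyme alone in red, set 1 over set 2 in grey and 95% intervals as bars; dotted lines mark 2-fold. Fgf9 goes from 5.74 to 0.20 in ending A and from 2.43 to 0.16 in ending B when PDGFRA-high cells are compared alone.

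For Fgf9 and Spry2 the difference between sets was much smaller when PDGFRA-high cells were compared alone. Among them Fgf9 was 291 CPM in A3 and 255 CPM in A1 and A2, a log2 ratio of 0.20 (-0.01 to 0.41), and 301 CPM in B3 and 270 CPM in B1 and B2, a ratio of 0.16 (0.04 to 0.27). Spry2 had ratios of 0.09 and -0.02. Spry1 had ratios of -0.63 (-0.93 to -0.32) and -0.11, Dusp6 of -0.25 and 0.53 (0.14 to 0.94), and Fgfr1 of 0.30 and 0.38. Fgfr2 had ratios of -0.57 (-1.29 to 0.24) and 0.37 (-0.47 to 1.30), on 18 UMIs in A1 and A2 and 16 in B1 and B2. None of the members that entered was 2-fold apart in this class. Within other mesenchyme, by contrast, Fgf9 was 113 CPM in A3 against 1.36 CPM in A1 and A2, and 121 CPM in B3 against 12.4 CPM in B1 and B2. Spry2 was also higher there, at 76.1 against 30.9 CPM in ending A, a log2 ratio of 1.30 (1.05 to 1.55). In ending B it was 261 against 125 CPM, a ratio of 1.07 (0.87 to 1.26). Spry1 had ratios of 0.66 and 0.87 in other mesenchyme, Dusp6 of -0.26 and 0.99, and Fgfr2 of -0.58 and -0.46. The cells of this class came from different clusters: cluster Ac10 held 86 of the 144 cells in A3 and clusters Bc5 and Bc7 held 84 and 50 of the 191 cells in B3.

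PDGFRA-high cells were the Fgf9-rich cells in every set. Their level was 269 CPM in A1, 239 in A2 and 291 in A3, with 263 in B1, 276 in B2 and 301 in B3, a narrow range for sets whose overall levels spanned 4.03 to 275 CPM. In other mesenchyme it was 1.90 CPM in A1, 0.775 in A2 and 113 in A3, with 11.2 in B1, 13.53 in B2 and 121 in B3. Between the classes, the log2 ratio ran from 1.32 in B3 to 8.27 in A2, and no pair of intervals overlapped. Pooled over sets, the 3983 PDGFRA-high cells held Fgf9 at 290 CPM, and 8320 other cells at 7.79 CPM. At 2000 UMIs per cell the shares were 39.2% and 1.85%, with median depths of 3849 and 7960.5 UMIs before thinning.

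Fgfr2 was the receptor with the reverse distribution. In PDGFRA-high cells it was 17.0 CPM in A1, 28.0 in A2 and 15.1 in A3, with 4.83 in B1, 5.17 in B2 and 6.50 in B3. In other mesenchyme it was 80.3 CPM in A1, 82.9 in A2 and 54.7 in A3, with 49.0 in B1, 46.6 in B2 and 34.6 in B3. In no set did the class intervals overlap, and the log2 ratios lay between -3.34 and -1.57. Fgfr1 did not separate the classes: the range was 57.4 to 84.3 CPM in one and 51.0 to 92.7 CPM in the other, with 3 sets on each side.

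Counted over the 6 members with at least 20 CPM in a class, 2 were higher in PDGFRA-high cells in all 6 sets (Fgf9 and Spry2), where 21.1% of 7190 genes were. Another 2 were lower in all 6 (Fgfr2 and Dusp6), where 25.7% of genes were. With a difference of at least 2-fold in every set, Fgf9 remained among the higher genes, a background of 2.31%, and Fgfr2 among the lower, a background of 4.17%. The Spry2 ratio ran from 0.10 in B3 to 2.12 in A2 and that of Dusp6 from -0.80 to -0.04. Dusp6 was not lower in every set when the mean of per-cell CPM was used, and neither it nor Fgfr2 was when the class was taken as the 10% of cells with most Pdgfra. Spry1 was higher in 4 sets and lower in A3 and B3, and Fgf10 higher in 5 sets and lower in A3. Fgf7 was 17.4 CPM in PDGFRA-high cells of A3, where no UMI was counted in the 144 other cells.

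**Figure D3:**
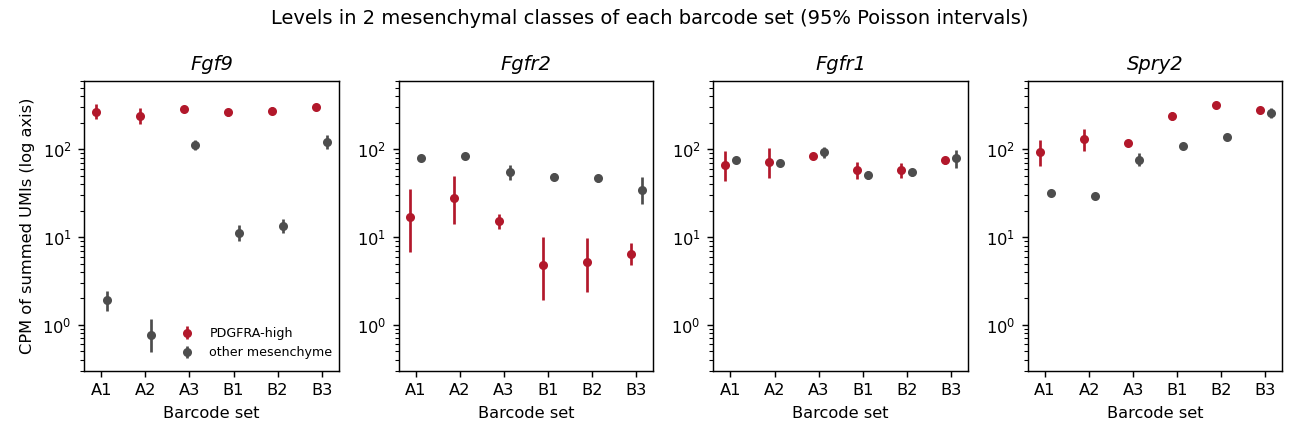
CPM on a log axis in PDGFRA-high cells (red) and other mesenchyme (grey) of each set, with 95% Poisson intervals, for Fgf9, Fgfr2, Fgfr1 and Spry2. Fgf9 is 239 to 301 CPM in PDGFRA-high cells of all 6 sets, Fgfr2 is below the other class in each, and Fgfr1 overlaps.

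Markers of other lineages, counted inside kept cells, also differed between sets and classes. Whether these UMIs came from free RNA, doublets or attached cells was not tested. The epithelial markers summed to 571 CPM in A3 and 151 CPM in B3 against 83.5 to 85.2 in A1 and A2 and 55.2 to 58.3 in B1 and B2, with none of the 8 markers at 0. In A3 this sum was 616 CPM for the PDGFRA-high class against 395 CPM for the other class (log2 ratio 0.64), and in B3 it was 153 and 139 CPM. A separate list of 5 enterocyte genes, none at 0, summed to 492 CPM in A1, 472 in A2 and 2330 in A3, with 35.3 in B1, 31.9 in B2 and 55.8 in B3. In A3 this sum was 2492 CPM in the PDGFRA-high class and 1687 CPM in the other class, a log2 ratio of 0.56, and its part in the comparisons of A3 was not tested. In A1 the epithelial markers summed to 141 CPM in the PDGFRA-high class and 84.4 CPM in the other class. Blood markers summed to 130 CPM in the 41 PDGFRA-high cells of A2 against 6.73 CPM in its other mesenchyme, and their part in the ratios of that set was not tested. Smooth muscle markers were lower in set 3, at 555 CPM in A3 and 230 CPM in B3, against 1551 to 1602 CPM in A1 and A2 and 1126 to 1128 CPM in B1 and B2. Cluster Ac2 held no Fgf9 UMI in 527 cells of a median of 9826 UMIs, which allows up to 0.573 CPM. Of its cells 288 were from A1, 236 from A2 and 3 from A3, so it does not bear on A3 or B3. The part of free RNA or doublets in the Fgf9 level of other mesenchyme in A3 and B3 was not tested. No cell class known to lack these genes was at hand; the 37 glia-like cells, with a median of 7997 UMIs, held Fgf9 at 46.0 CPM (25.2 to 77.2).

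Clusters resolved the pattern further. Among the 3 PDGFRA-high clusters of ending A, Fgf9 was 525 CPM in Ac11 (489 to 563), which was led by Calb1, Opcml and F2rl1, 251 CPM in Ac1 and 201 CPM in Ac12. In ending B it was 379 CPM in Bc2 (359 to 400), 262 CPM in Bc1 and 222 CPM in Bc3. Fgf10 was also highest in Ac11, at 29.6 CPM (21.5 to 39.7), against 10.7 CPM in Ac1, and in ending B it was 22.4 CPM in Bc1 and 20.1 CPM in Bc2 against 6.70 CPM in Bc3. Fgf7 had a different place: it was 29.5 CPM (24.8 to 34.9) in Ac1, led by Slco2a1, Npnt and AW112010, and at most 3.88 CPM in any other cluster. Fgfr3 was 11.1 CPM in Ac1 as well. In Ac1 8 of the 8 epithelial markers, and in Ac11 4 blood markers, were at least 4-fold above the other clusters, and their part in these levels was not tested.

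The levels of Spry1 and Spry2 had different orders among PDGFRA-high clusters. Spry1 was highest in Ac12, at 162 CPM (145 to 180), where Spry2 was 69.5 CPM, and it was 47.7 CPM in Ac1, where Spry2 was 133 CPM. Ac11 had both, with Spry1 at 117 CPM (100 to 136) and Spry2 at 132 CPM (115 to 152). In ending B, Spry2 was 317 CPM in Bc1 and 286 CPM in Bc3 with Spry1 at 57.6 and 38.2 CPM, and Bc2 had 231 and 94.2 CPM. Dusp6 had the order of Spry1 in ending A, with 64.6 CPM in Ac12, 41.7 CPM in Ac11 and 23.7 CPM in Ac1. In ending B it was 35.1 CPM in Bc3, 32.3 CPM in Bc2 and 21.9 CPM in Bc1.

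Intermediate Fgf9 levels were seen in other mesenchyme: 59.8 CPM in Ac10 and 52.9 CPM in Bc5, both with Apela and Tmem100 among their leading genes, and 68.2 CPM in the mitotic cluster Bc7. In these clusters Fgfr2 was 70.5, 28.6 and 39.5 CPM. The highest Fgfr2 level was 431 CPM (370 to 498) in Ac14, a cluster of 54 cells led by Igfbp3, P2rx1 and Col18a1, in which 51.9% of cells had a Fgfr2 UMI at 2000 UMIs per cell and no Fgf9 UMI was counted. In the PDGFRA-high clusters Fgfr2 was 4.36 to 34.5 CPM.

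**Figure D4:**
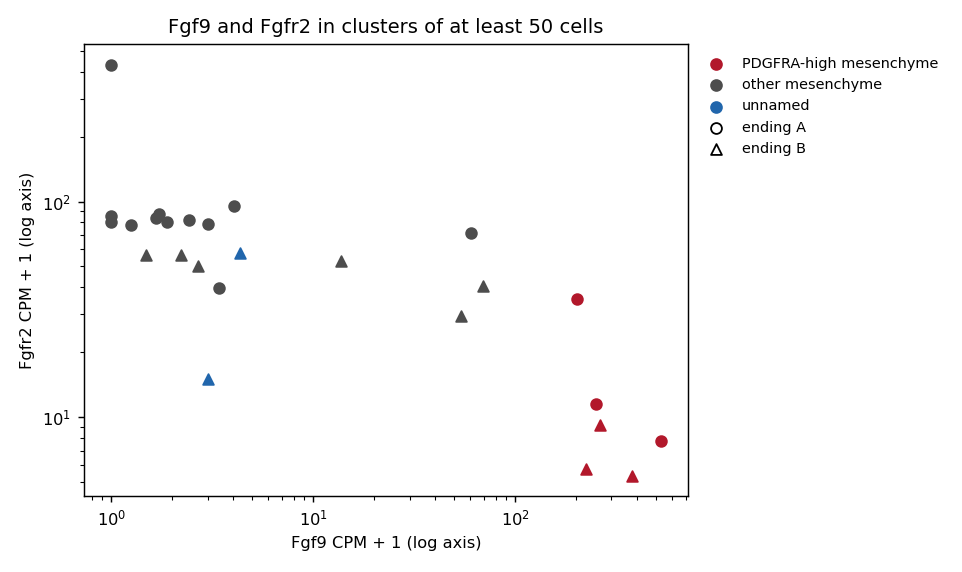
Fgf9 against Fgfr2, both as CPM plus 1 on log axes, in 15 clusters of ending A (circles) and 11 of ending B (triangles) with at least 50 cells; colour gives the class. PDGFRA-high clusters lie at 201 to 525 CPM of Fgf9 and 4.36 to 34.5 CPM of Fgfr2, and Ac14, with no Fgf9 UMI, lies alone at 431 CPM of Fgfr2.

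Across these clusters Fgf9 and Fgfr2 had Pearson correlations of log2(CPM + 1) of -0.80 over 15 clusters of ending A and -0.78 over 11 of ending B. Clusters of an ending share libraries, so these values are descriptions. Among 7286 genes, the 3 most like Fgf9 were Thsd7b, Abr and Tcf4, with correlations of at least 0.956 in both endings. Those most like Fgfr2 were Aard, Vstm4 and Btg3, with at least 0.860. Cald1, Foxf2 and 1700018A04Rik were most like Fgf10, with at least 0.811. For Spry2 they were Cntfr, Ncald and Ap1s2, with at least 0.878, and for Spry1 they were Tmem100, Plekhg1 and Spry4, with at least 0.740. Emilin1, Klf2 and Rev3l were most like Fgfr1, with at least 0.748, and Pfn1, Arpc4 and Eloc most like Dusp6, with at least 0.760. Fgf7, Fgf18 and Fgfr3 stayed under 20 CPM in the clusters of one ending or both, so their correlations rest on few UMIs. Slc44a1, Ankrd63 and Daam2 were most like Fgf7, with at least 0.903, Glce, Adra2c and Nrg2 most like Fgf18, with at least 0.786, and Gclm, Pcdh9 and Vamp5 most like Fgfr3, with at least 0.690.

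Ligand and receptor were then looked for in the same cell. Every cell was thinned to 2000 UMIs, since deep cells hold UMIs of more genes, and the share of cells with a receptor UMI was compared between cells with and without a ligand UMI. Of 12 pairs, the 6 with Fgf9 or Fgf10 had at least 20 ligand-positive cells in 5 sets or more; Fgf9 had 13 in A2, Fgf7 had enough in A3 alone and Fgf18 in no set. Among these 6 pairs, 1 had a lower share with the ligand in all 6 sets, A2 included, Fgf9 with Fgfr2, and 0 had a higher share. Over 10329 genes, 8.43% had a lower share in cells with a Fgf9 UMI in all 6 sets and 4.62% a higher one. In cells with a Fgf9 UMI, Fgfr2 was found in 2 of 24 in A1, 1 of 13 in A2 and 8 of 420 in A3, with 1 of 184 in B1, 1 of 232 in B2 and 6 of 836 in B3. These shares were 8.33%, 7.69%, 1.90%, 0.543%, 0.431% and 0.718%. In cells without a Fgf9 UMI they were 14.3%, 13.1%, 4.11%, 8.49%, 7.02% and 2.03%. The intervals were apart in B1 and B2 and overlapped in the other sets.

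The pattern was weaker inside a class. Among PDGFRA-high cells the Fgfr2 share was again lower with Fgf9 in 6 of 6 sets, at 1.52% against 3.46% in A3 and 0.748% against 1.21% in B3, but every pair of intervals overlapped. In A1, A2, B1 and B2 this rests on 1 to 3 Fgfr2-positive cells, all without a Fgf9 UMI, too few to show a split there. Among other mesenchyme it was lower in 3 of the 6 sets. Fgfr1 was found about as often in cells with as without Fgf9. Its share was 16.2% against 15.1% in A3, with 13.0% against 10.8% in B1, 12.1% against 11.0% in B2 and 14.2% against 14.5% in B3. A UMI of both Fgf9 and Fgfr1 was thus counted in 68 cells of A3 and 119 cells of B3.

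Over all kept cells Fgf10 showed no such split from Fgfr2. Among its 32 to 65 positive cells per set, the Fgfr2 share was 18.4% in A1, 15.9% in A2 and 6.25% in A3, with 7.89% in B1, 8.0% (4 of 50) in B2 and 0% (0 of 65, interval up to 5.52%) in B3, with intervals that overlapped those of the other cells. In PDGFRA-high cells alone, 0 of the 2 to 61 Fgf10-positive cells per set held Fgfr2, against 1 to 28 Fgfr2-positive cells among the rest. The share was thus lower in 6 of 6 sets there too, with overlapping intervals. With so few positive cells of each gene, 0 is a likely count for unrelated genes as well, so this cannot show a split. A Fgf9 UMI was more frequent in Fgf10-positive cells in 6 of 6 sets, for instance 53.1% against 35.3% in A3 and 44.6% against 38.4% in B3. Intervals again overlapped. For Fgf10, 1.32% of genes were higher in all 6 sets and 2.83% lower. A1 and A2 add little: Fgf10 was found in 1 of 15 A1 cells with 1 Fgf9 UMI and 1 of 9 with more. In A2 it was found in 0 of 9 and 1 of 4. Pooled over sets, Fgf10 was also higher in PDGFRA-high cells (16.4 against 9.28 CPM), though not in A3. The part of class in this pair was not tested. Fgf7 had at least 20 positive cells in A3 alone, where 1 of 37 held Fgfr2 and 8 of 37 held Fgfr1.

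Response genes were looked at in the same way. Spry2 was found more often in cells with a Fgf9 UMI in A3, at 26.0% against 18.6%, in B1, at 34.2% against 19.8%, and in B2, at 39.7% against 25.5%, with intervals apart. In B3 it was not, at 37.7% against 39.3%. Among PDGFRA-high cells the shares were 26.1% against 19.7% in A3, with 35.1% against 33.2% in B1, 40.3% against 43.9% in B2 and 38.0% against 40.3% in B3, and the intervals overlapped in these 4 sets. Spry2 was found in 29.5% of Spry1-positive and 20.2% of Spry1-negative cells in B1, with intervals apart, and in 44.8% and 37.9% in B3, where they overlapped, as they did in the other 4 sets. Neither Fgfr1-positive nor Fgfr2-positive cells had a higher share of Spry1, Spry2 or Dusp6 in all 6 sets, and neither had a lower one in all 6. The background was 1.42% higher and 1.47% lower for Fgfr1, and 1.61% higher and 2.93% lower for Fgfr2. The Spry2 share was higher in Fgfr2-positive cells in 4 sets and lower in 2, with differences from -10.6 to 3.58 points. The largest difference was in B2, at 16.9% in Fgfr2-positive cells and 27.5% in the others, the 1 set with intervals apart. The part of class in it was not tested.

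**Figure D5:**
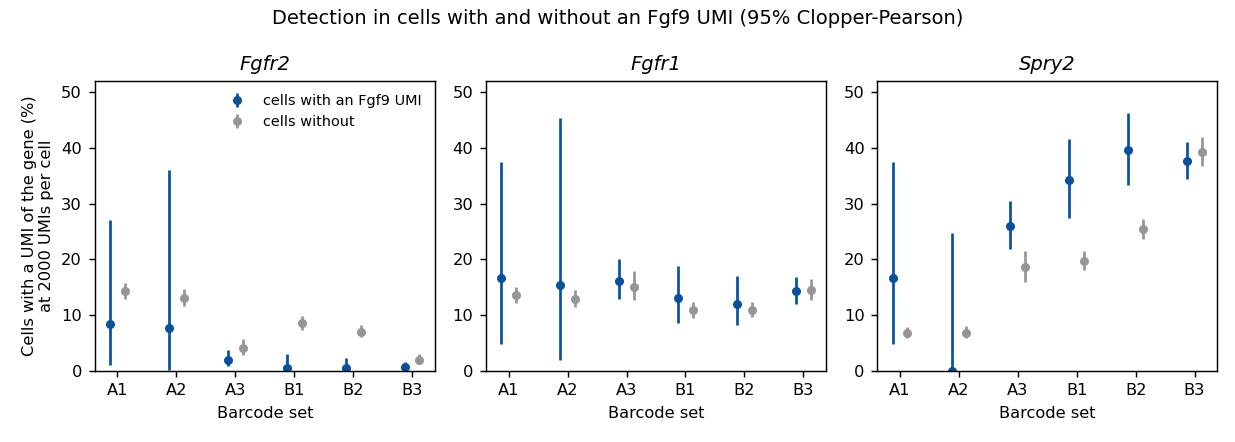
Share of cells with a UMI of Fgfr2, Fgfr1 or Spry2 in each set, at 2000 UMIs per cell, for cells with (blue) and without (grey) a Fgf9 UMI, with 95% Clopper-Pearson intervals. The Fgfr2 share is lower with Fgf9 in 6 sets, 0.543% against 8.49% in B1 for example, whereas the Fgfr1 shares lie close together.

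The endings differed too. B1 and B2 together, compared with A1 and A2, had Spry2 higher by 2.25 on the log2 scale (2.17 to 2.33), where 3.14% of 6712 genes were at least 2-fold higher. The Spry2 ratio was 2.01 in other mesenchyme and 1.36 in PDGFRA-high cells. Dusp6 had a ratio of -1.09, close to its value of -1.11 in other mesenchyme and -0.99 in PDGFRA-high cells, where 11.7% of genes were at least 2-fold lower. The Fgf9 ratio was 3.42 over all cells, 0.09 (-0.14 to 0.31) in PDGFRA-high cells and 3.19 (2.81 to 3.58) in other mesenchyme, where the levels were 12.4 and 1.36 CPM. Fgfr2 had ratios of -0.99 over all cells, -2.16 (-3.22 to -1.10) among the PDGFRA-high and -0.77 among other mesenchymal cells. The endings differ in depth and in the symbols with any count, 21351 in A and 18222 in B with 17403 in both. Whether they were counted on different symbol lists is not known. The enterocyte sums given above were also lower in B1 and B2. Ending, age, depth, enterocyte RNA and the symbols counted therefore cannot be told apart.

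Other genes of the pathway were taken from a fixed list of 60, of which 57 were in the matrix. Of 15 other FGF ligands found, 0 reached 20 CPM in a set; the highest was Fgf13, an intracellular member of the family, at 12.1 CPM in B1. Of 6 receptors and co-receptors 1 did, Flrt2, which was lower in set 3 with log2 ratios of -1.42 and -2.25. Among 11 further response genes, 6 entered in ending A with 2 higher (Spry4 and Il17rd) and 0 lower, and 5 in ending B with 1 higher (Il17rd) and 0 lower, against the 9.63% and 8.56% of all genes given above as higher in the endings and the 5.59% and 5.37% as lower. Il17rd, an inhibitor of FGF signalling, was 28.3 against 12.4 CPM in ending A and 34.8 against 10.7 CPM in ending B. Spry4 was 36.8 against 11.9 CPM and 22.2 against 11.3 CPM, and Dusp5 had ratios of -0.70 and -0.53.

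Of adaptors and kinases, 0 of 9 were called in ending A and 1 of 7 in ending B, beside 15.2% and 13.9% of all genes. The 1 called was Shc1, which had ratios of 0.63 and 1.07. Mapk3, which encodes ERK1, had ratios of 0.66 and 0.77, and Sos1, an activator of Ras, 0.25 and 0.23. Of the heparan sulfate group, whose chains assist ligand binding, 14 entered in ending A with 2 higher and 1 lower, and 13 in ending B with 2 higher and 2 lower. These 3 of 14 and 4 of 13 stand beside 15.2% and 13.9% of all genes apart by 2-fold. Sdc4, a cell surface proteoglycan, was higher by 1.60 and 1.30, whereas the glypican Gpc6 had ratios of -1.02 and -1.11 and Gpc4 of -0.95 and -1.28. The median log2 ratio was 0.31 and 0.42 for the response genes, -0.02 and 0.38 for adaptors and kinases and 0.08 and 0.29 for the heparan sulfate group.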

How the data were processed

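Single-cell RNA of 6 samples in 4 groups was prepared with MULTI-seq and 10x 3' chemistry, per the labels' protocols. The authors deposited 1 matrix of raw UMI counts per gene symbol and barcode, with whole-number values and no map from cells to samples. Cell Ranger 2.1.1, Seurat and mm10 are named in the submitters' processing notes, but not the step of each. The number of sample columns left unmapped is 0.

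Cells with under 1000 genes (108) or over 5% mitochondrial UMIs (367) were left out. Scrublet (scanpy 1.11.5, expected rate 5%, each set) called 65 doublets, 0.512% of cells, which were removed; in ending A it called 0.331% and is not taken to have worked, so doublets may remain. Total kept UMIs per set were 8160749 to 30932046. Each ending was clustered on 2000 variable genes counted in both endings, 30 components, 15 neighbours and leidenalg 0.10.2 at resolution 1. To be named PDGFRA-high, a cluster needed 3 or more list members at 2-fold; a non-mesenchymal lineage needed 3 or more at 4-fold, 2 of them among the top 10 genes; other mesenchyme needed 3 or more mesenchymal genes at 100 CPM; the scoring rule was set after the clusters were seen. A cluster with more top genes of another class stayed unnamed.

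UMIs were summed and divided by the total to give CPM, with exact Poisson 95% intervals. Ratios have exact conditional binomial and shares exact Clopper-Pearson intervals (scipy 1.17.1), for counting error only; a count of 0 was given the limit of 3 counts. The ratio step was tested on simulated data: direction was recovered for 100% of 200 changed genes, and intervals held the true ratio for 96.5% (A3 against A1 and A2, 6702 genes) and 92.0% (B3 against B1 and B2, 5744 genes). The simulated counts were Poisson draws of set totals, as the intervals assume. They leave out the uneven spread of real UMIs over cells, so this checks the calculation only. In A1, for example, 169 Fgf9 UMIs lay in 66 cells. All members are named, with the 3 pathway genes of each group with the largest ratio of one sign in both endings, and the 3 genes most correlated with each member over clusters of at least 50 cells. The members and lists were chosen with earlier results of these data known. Alternatives are given in the closing section.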

Additional observations from a re-analysis of the deposited data

Results flagged for a closer look

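Dusp6, the ERK phosphatase, had ratios of opposite sign in the endings. Its log2 ratio of set 3 over sets 1 and 2 was -0.55 (-0.71 to -0.39) in ending A and 0.38 (0.17 to 0.59) in ending B, and set 3 lay on its side of both other sets in each ending. The difference between the endings was not tested. Among PDGFRA-high cells alone the ratios were -0.25 (-0.76 to 0.30) and 0.53 (0.14 to 0.94). In other mesenchyme they were -0.26 (-0.58 to 0.05) and 0.99 (0.54 to 1.41). B1 over B2 had a log2 ratio of -0.29 (-0.53 to -0.04) for Dusp6. With all kept cells scaled by the median of gene ratios in place of total UMIs, the ratios of set 3 were -0.65 and 0.20.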

How the results depend on the processing

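No paired analysis was possible because the lane numbers in the labels could not be tied to cells, and nothing was tested. The count of members called was 5 in ending A with a minimum of 5 CPM, where Fgf7 and Fgfr3 were added. It was 4 in ending B at 1.5-fold, where Spry1 and Spry2 were added. The share of all genes was not computed at the alternative settings, so these counts are not a result about the members. The count was 0 in both endings among PDGFRA-high cells alone, an alternative chosen after seeing the data. There the log2 ratio also changed sign for Fgf10 (-0.67), Fgf18 (-1.20) and Spry1 (-0.63) in ending A and for Fgf10 (-0.23), Fgfr2 (0.37), Spry1 (-0.11) and Spry2 (-0.018) in ending B. Of 138 single-gene ratios under alternatives, 108 kept their value within counting error, 23 moved and these 7 changed sign. The count of ligand and receptor pairs lower in all 6 sets, 1 as reported, was 2 at 3000 UMIs, 3 with another thinning seed, 2 with doublets kept and 3 without the 10% of cells with most UMIs, where Fgf10 or Fgf9 with Fgfr3, resting on few positive cells, were added. It was 2 in PDGFRA-high cells alone, where Fgf10 with Fgfr2 was added on too few positive cells to show a split, and 0 in other mesenchyme alone. Fgf9 with Fgfr2 was counted in each of these settings except the last. Among PDGFRA-high cells alone its count also rests on too few Fgfr2-positive cells in A1, A2, B1 and B2 to show a split. Members below other mesenchyme in each of the 6 sets numbered 1 with the mean of per-cell CPM and 0 with the 10% of cells with most Pdgfra, while Fgf9 and Spry2 stayed higher in both. Without A3 the Fgf10 level was higher in PDGFRA-high cells in the remaining 5 sets. Depth limits Fgf7, Fgf18 and Fgfr3, and the Fgf9-positive cells of A1 and A2, which number 24 and 13. The causes of these differences were not tested.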
